A study of Arabidopsis thaliana with 96 samples.

Results

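The AGe cassette was followed in flowers of 2 Arabidopsis thaliana hosts, M318 and M317. The 18 libraries, of 96 in the series, were those of library set A titled M318 or M317 with no cassette named, or M318_AGe or M317_AGe, and they were chosen by these titles alone. They form 6 groups of 3 libraries. M318_AGe plants had sMf or rMf flowers, M317_AGe plants had sMf or rMf flowers, and the M318 and M317 hosts had flowers classed as Wt. All 6 groups are labelled young flower and carry the treatment label Floral structure change, hosts included. Their common library kit was the NEXTflex Small RNA-Seq Kit v3. RNA for a replicate came from flowers pooled over 5 to 10 lines of a phenotype, so the sMf and rMf pools of a host may come from different transformed lines. What sMf, rMf, M2 and the host names stand for is not given in the labels, nor whether the hosts carry a construct. Every cassette group differs from its host in both the cassette and the flower class, so the 2 cannot be told apart in those comparisons. The table holds 2 regions and read totals and no marker genes, so the labelled tissue could not be checked.

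AGAMOUS (AG, AT4G18960) encodes a MADS-box transcription factor that specifies stamens and carpels and ends the growth of the floral meristem. Much of its regulatory DNA lies inside its long second intron, where LEAFY and WUSCHEL bind to switch the gene on in the flower centre. In RNA-directed DNA methylation (RdDM), small interfering RNAs guide a DNA methyltransferase to matching sequence, and a transgene copy of a regulatory element can be a source of such RNAs.

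The AGe region is the AG enhancer, chr4:10384147-10387145 in TAIR10 coordinates (2999 bp, 28.6% GC), and lies inside AG, which runs from 10382856 to 10388539 on the plus strand. In 3 of the 4 annotated transcripts 2835 bp of it are intron 2, 90 bp are exon 3 (10386982 to 10387071) and 74 bp are intron 3. The other transcript has it all in intron 2. The second region, headed AG promoter (AGp) or M2 and called AGp here, is chr4:10380701-10382800 (2100 bp, 28.6% GC). It overlaps no annotated gene, and 55 bases separate it from AG. Its column has a single pair of coordinates for both names, and whether the counts in M318, M317 and their cassette lines are of the AG promoter or of M2 is not settled by the sources used here. A stretch of each region is shown from the headed coordinates. That of AGe, with 6 motif matches, was centred on the densest group of such matches, so it does not represent AGe as a whole. That of AGp is its end nearest to AG, taken by position. Both are from the plus strand of the RefSeq copy of the genome, at chr4:10386537-10386836 and chr4:10382601-10382800.
AGe stretch: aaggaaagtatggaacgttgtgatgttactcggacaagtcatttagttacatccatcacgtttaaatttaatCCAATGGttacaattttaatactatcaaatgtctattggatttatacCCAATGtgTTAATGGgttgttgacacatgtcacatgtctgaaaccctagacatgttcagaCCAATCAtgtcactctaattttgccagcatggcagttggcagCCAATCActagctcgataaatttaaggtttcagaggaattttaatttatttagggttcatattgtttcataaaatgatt
AGp stretch: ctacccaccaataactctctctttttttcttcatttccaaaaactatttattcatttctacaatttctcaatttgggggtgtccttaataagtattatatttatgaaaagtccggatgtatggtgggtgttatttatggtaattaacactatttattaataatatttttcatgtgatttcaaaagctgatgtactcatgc
Capitals mark matches to CCAATCA (a repeat known from the AG intron), CCANTG (the core of LEAFY sites) and TTAATGG (the core of WUSCHEL sites), searched on both strands. The first capital run holds CCANTG on both strands, overlapping by all but 1 base on each side. AGe as a whole held 2 CCAATCA, 6 CCANTG and 1 TTAATGG, while AGp held 0, 1 and 1. Of the CCANTG matches in AGe, 3 lie outside the stretch shown, and neither match in AGp lies inside its stretch. Of windows of the length of AGe tiled over the genome, 40.5% held CCAATCA, 96.4% held CCANTG and 40.7% held TTAATGG at least at 1 place, while 10.3% held 2 or more CCAATCA and 32.8% held 6 or more CCANTG. For windows of the length of AGp these shares were 30.5%, 91.3% and 30.7%. The matches describe the letters only.

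All 2976 words of 24 bases in AGe and all 2077 in AGp occurred at a single place in the genome, and the regions shared none. Of the words of 21 bases, 99.6% in AGe and 99.66% in AGp did so. Nearly all exact reads of those lengths thus have a single place in the reference, but a cassette copy and the copy in AG cannot be told apart.

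The share of reads that mapped set M318_AGe rMf flowers apart, which touches every result that includes them. Mapped reads, in units of 1000000 reads, ran from 4.07 to 21.5 a library over the 18 libraries, and 3 reads, the limit that a count of 0 allows, equal 0.139 to 0.738 reads per 1000000 mapped reads (RPM). In M318_AGe rMf flowers 47.3%, 40.7% and 44.9% of total reads mapped, against 95.3% to 98.4% in the other 15 libraries and 94.6% to 98.3% in the other 10 of set A. The unmapped reads of these 3 libraries, 10.5 to 13.2 in the same units, were not analysed here. Values are therefore given per 1000000 mapped reads, and where it matters per 1000000 reads aligned once and per 1000000 total reads.

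AGe reads were 103 to 215 times as frequent per mapped read with the cassette as without it, over both hosts and both flower classes. In M318_AGe sMf flowers AGe stood at 2685, 2742 and 2706 RPM, against 17.0, 14.6 and 13.7 RPM in M318 flowers. M318_AGe rMf flowers held 1611, 1419 and 1540 RPM. In M317_AGe sMf flowers AGe stood at 3461, 3455 and 3353 RPM, against 15.0, 17.1 and 15.7 RPM in M317 flowers, and M317_AGe rMf flowers held 2004, 2065 and 1996 RPM. No cassette library came near a host library, and within each host no sMf library overlapped an rMf library. In bulk RNA, fewer cells making these reads and fewer reads per cell cannot be told apart.

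The fitted ratio of cassette to host was 183 in M318_AGe sMf flowers (95% interval 162 to 208; log2 7.52 ± 0.08 SE; adjusted p = 4.27e-26, edgeR quasi-likelihood). In M318_AGe rMf flowers it was 103 (91.1 to 117; adjusted p = 2.14e-25, edgeR). In M317_AGe it was 215 (194 to 240; adjusted p = 2.34e-26, edgeR) for sMf flowers and 127 (114 to 142; adjusted p = 4.27e-26, edgeR) for rMf flowers. Over libraries, with both hosts together, the mean log2 difference from the host was 7.62 for sMf and 6.83 for rMf flowers (exact stratified permutation p = 0.005, the smallest that the 400 arrangements can give; adjusted p = 0.0114 over 16 tests). Within a host, 3 libraries against 3 cannot go below an exact p of 0.1. Over all 12 comparisons of both regions, 58.3% of the 24 edgeR tests passed.

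The ratio in M318_AGe rMf flowers depended on the library size. Per reads aligned once it was 131 (110 to 156) and per total reads 46.5 (40.2 to 53.7). The ratios of the other 3 cassette groups moved less: per reads aligned once they were 216 for M318_AGe sMf, 232 for M317_AGe sMf and 126 for M317_AGe rMf flowers, and per total reads 181, 211 and 127.

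**Figure D1:**
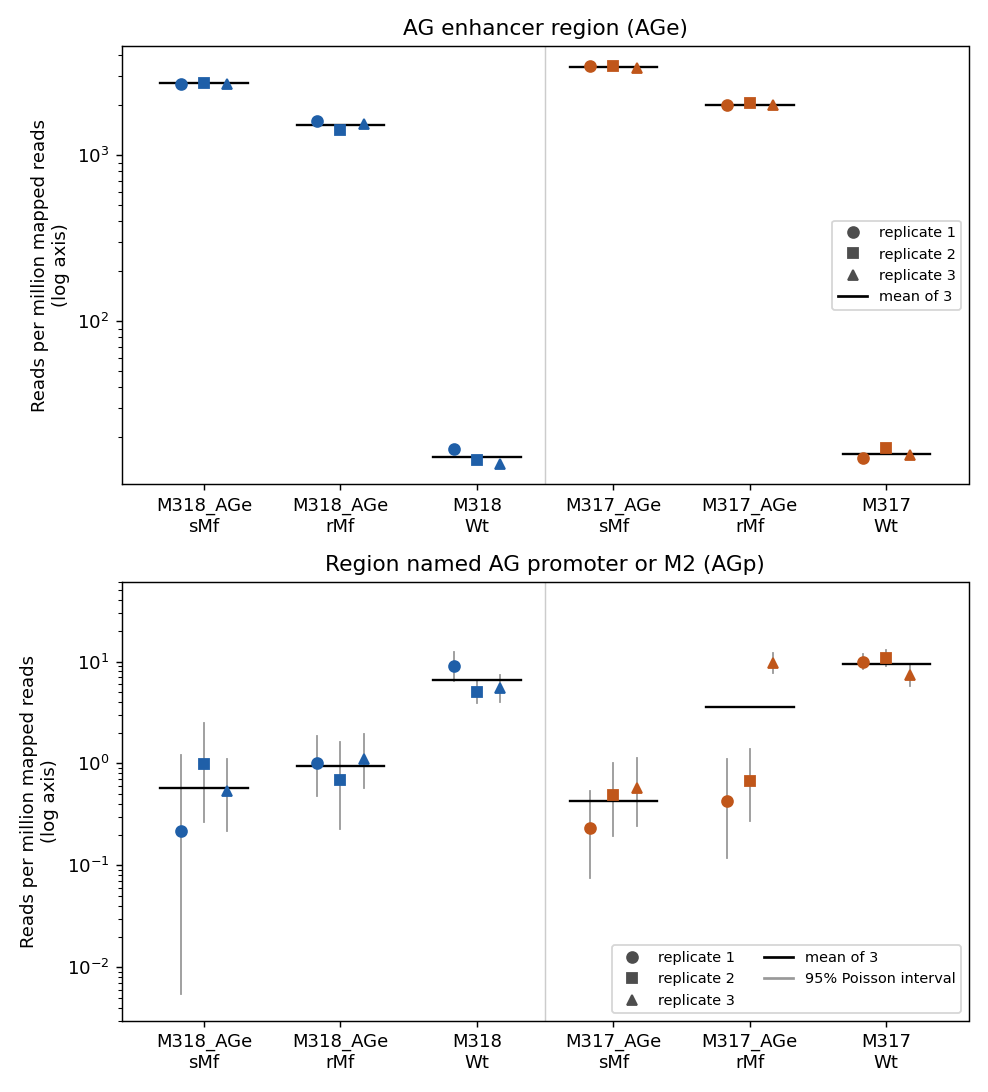
Reads per 1000000 mapped reads (log axis) over AGe (top) and AGp (bottom) in each of the 18 libraries; points are replicates, horizontal lines are means of 3 and grey bars are 95% Poisson intervals of AGp. AGe is at 1419 RPM or more in all 12 cassette libraries and at 17.1 RPM or less in the 6 host libraries, while AGp is low in 11 cassette libraries and at 9.68 RPM in replicate 3 of M317_AGe rMf flowers.

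Within each host, AGe was higher in sMf than in rMf flowers. In M318_AGe the means were 2711 ± 28.7 RPM in sMf and 1523 ± 97.2 RPM in rMf flowers (SD, n = 3 each), a fitted ratio of 1.78 (1.67 to 1.89; adjusted p = 5.16e-13, edgeR). In M317_AGe they were 3423 ± 60.9 RPM in sMf and 2022 ± 37.4 RPM in rMf flowers, a ratio of 1.69 (1.59 to 1.80; adjusted p = 1.58e-12, edgeR). Higher AGe in sMf flowers was seen in every pairing of a sMf with an rMf library within a host, with a mean log2 difference of 0.80 (exact stratified permutation p = 0.005, adjusted p = 0.0114).

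Whether that ratio was larger in M318 or in M317 turned on the library size. Per mapped read the log2 ratio was higher in M318_AGe by 0.07 ± 0.06 (SE; adjusted p = 0.302, edgeR), with no call. Per read aligned once, the ratio was 1.65 (1.61 to 1.70) in M318_AGe and 1.83 (1.79 to 1.88) in M317_AGe, a log2 difference of -0.15 ± 0.02 (adjusted p = 7.51e-08, edgeR). On that scale the libraries of each group agreed within counting error, and whether their pools share plants is not stated. Its intervals, SE and p-values may therefore reflect technical spread and not the spread between plant lines. Per total read, the ratio was 3.90 (3.54 to 4.30) in M318_AGe and 1.66 (1.51 to 1.83) in M317_AGe, a log2 difference of 1.23 ± 0.09 (adjusted p = 4.63e-10, edgeR). M318_AGe rMf libraries varied by 13.8% per total read, against 0.941% to 1.74% in the other cassette groups. The fit pools the spread over set A, so intervals with that group may be too narrow. The 3 scales thus gave no common order of the hosts, although sMf was above rMf on each.

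Per read aligned once, AGe was nearly constant within a group. M318_AGe sMf flowers held 6782, 6781 and 6869 AGe reads per 1000000 reads aligned once, and M318_AGe rMf flowers 4157, 4128 and 4115. M317_AGe sMf flowers held 8541, 8609 and 8542, and M317_AGe rMf flowers 4625, 4688 and 4687. The hosts held 35.5, 30.8 and 30.7 in M318 and 34.6, 39.4 and 37.5 in M317. The coefficient of variation was 0.457% to 0.771% in the 4 cassette groups, and in all 6 groups the 3 libraries agreed within counting error (chi-square with 2 degrees of freedom 0.861 to 2.34, p = 0.311 to 0.650).

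Per mapped read the same libraries were less alike. The chi-square was 101.1 in M318_AGe rMf (p = 1.09e-22), 33.4 in M317_AGe sMf (p = 5.73e-08) and 13.5 in M317_AGe rMf flowers (p = 0.00117), while M318_AGe sMf flowers stayed within counting error (2.64, p = 0.268). M318_AGe rMf flowers varied by 6.38% per mapped read and by 0.517% per read aligned once. AGe made up 0.681% of the reads aligned once in M318_AGe sMf, 0.413% in M318_AGe rMf, 0.856% in M317_AGe sMf and 0.467% in M317_AGe rMf flowers, so AGe reads were a small part of that denominator. In the hosts they made up 0.00323% in M318 and 0.00371% in M317.

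**Figure D2:**
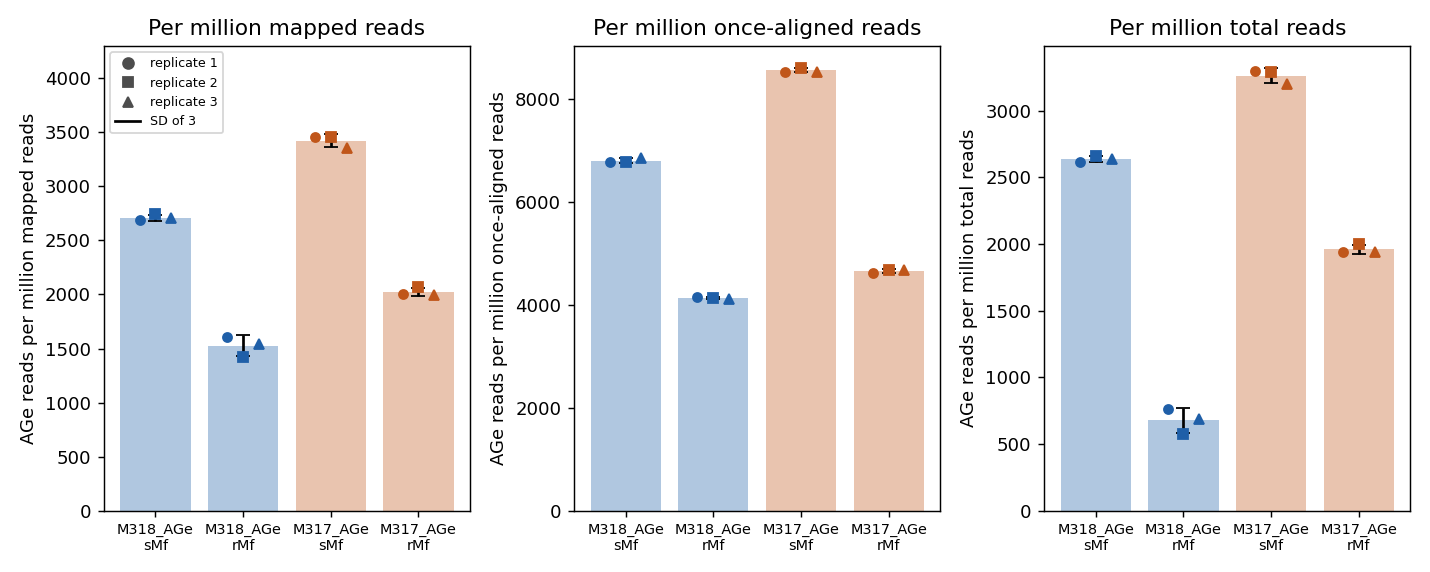
AGe reads per 1000000 mapped, once-aligned and total reads in the 4 cassette groups (linear axes from 0); bars are means of 3 libraries, black bars the SD and points the replicates. M318_AGe rMf flowers are lowest on each scale, and their distance from M317_AGe rMf flowers changes most, with 1523 per 1000000 mapped, 4134 per 1000000 once-aligned and 676.7 per 1000000 total reads.

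M318_AGe flowers held fewer AGe reads than M317_AGe flowers of the same class. Among sMf flowers the ratio of M318_AGe to M317_AGe was 0.792 (0.746 to 0.841; adjusted p = 5.36e-07, edgeR), and per read aligned once and per total read it was 0.797 and 0.808. Among rMf flowers it was 0.754 (0.710 to 0.801; adjusted p = 4.04e-08, edgeR) per mapped read, 0.886 (0.862 to 0.910) per read aligned once and 0.345 (0.313 to 0.380) per total read. All 3 libraries of M318_AGe lay below all 3 of M317_AGe in both classes.

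No host difference in AGe was called, at 15.1 ± 1.69 RPM in M318 and 15.9 ± 1.10 RPM in M317 flowers (SD, n = 3 each), a ratio of 0.930 (0.799 to 1.08; adjusted p = 0.391, edgeR). Their libraries overlapped. Over all 3 classes together, M318 stood below M317 with a mean log2 difference of -0.28 (exact stratified permutation p = 0.001, adjusted p = 0.0114). That mean came mostly from the cassette flowers, with -0.34 in sMf and -0.41 in rMf flowers against -0.08 in the hosts.

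The gain over the host was smaller in M318 than in M317 for rMf flowers, by a log2 difference of -0.30 ± 0.11 (SE; adjusted p = 0.0279, edgeR), and for sMf flowers the difference was -0.23 ± 0.11 (adjusted p = 0.0869, edgeR; 0.0473 without replicate 2 of M317). The call for rMf flowers was lost per read aligned once, where the difference was 0.05 ± 0.16 (adjusted p = 0.747, edgeR), and per total read it was -1.45 ± 0.13 (adjusted p = 8.6e-09, edgeR). It was also lost without replicate 1 or 2 of M318, without replicate 1 of M317 or without replicate 2 of M318_AGe rMf flowers, with adjusted p of 0.0835, 0.0661, 0.0988 and 0.0584 (edgeR).

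**Figure D3:**
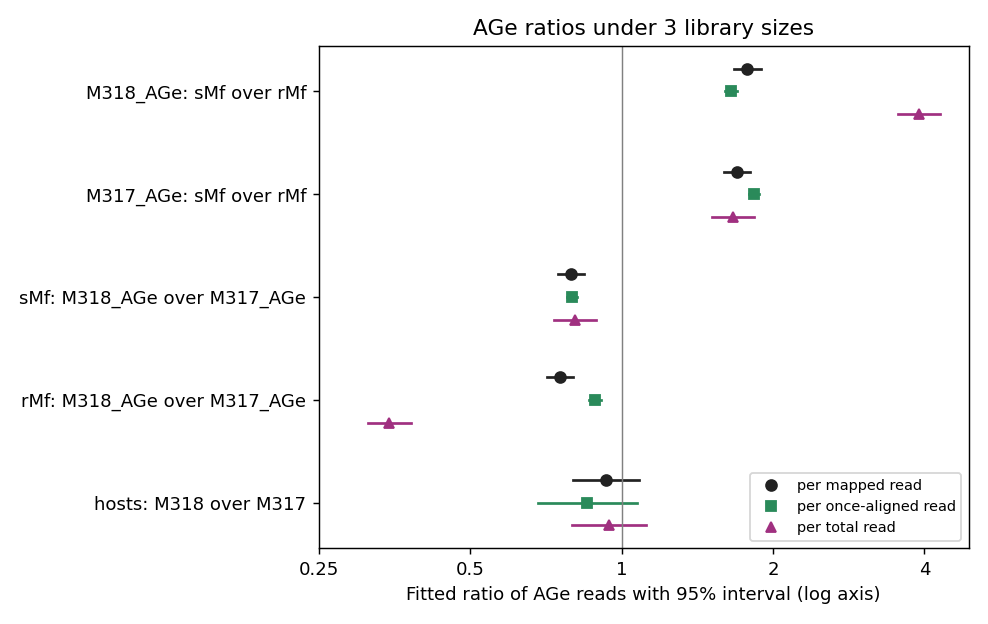
Fitted ratios of AGe reads with 95% intervals (log axis), per mapped, once-aligned and total read. The sMf over rMf ratios lie above 1 and the M318_AGe over M317_AGe ratios below 1 on each scale, the M318_AGe rMf ratios move most, and the host ratio spans 1.

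AGp went the other way. It was read 1, 4 and 7 times in the 3 libraries of M318_AGe sMf flowers and 10, 5 and 12 times in those of M318_AGe rMf flowers, against 41, 65 and 45 times in M318 flowers. In RPM these are 0.217, 0.984 and 0.537 for sMf, 1.00, 0.695 and 1.11 for rMf, and 9.04, 5.06 and 5.45 for M318 flowers. No M318_AGe library overlapped an M318 library. The fitted ratio to M318 was 0.0873 (0.0257 to 0.297; adjusted p = 0.0017, edgeR) for sMf flowers and 0.146 (0.0482 to 0.443; adjusted p = 0.00502, edgeR) for rMf flowers.

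In M317_AGe sMf flowers AGp was read 5, 7 and 8 times, against 137, 127 and 69 times in M317 flowers. That is 0.232, 0.487 and 0.568 RPM in M317_AGe sMf flowers and 9.95, 10.8 and 7.32 RPM in M317 flowers, a fitted ratio of 0.0449 (0.0146 to 0.138; adjusted p = 0.000127, edgeR). Pooled over 3 libraries, sMf flowers held 0.553 RPM in M318_AGe (12 reads, 95% Poisson interval 0.286 to 0.965) and 0.400 RPM in M317_AGe (20 reads, 0.244 to 0.618). These counts are near the limit of detection of single libraries, and the intervals cover counting error only.

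M317_AGe rMf flowers were mixed. Replicates 1 and 2 had 4 and 7 AGp reads (0.431 and 0.674 RPM), and replicate 3 had 81 (9.68 RPM, 95% Poisson interval 7.69 to 12.03). That is inside the range of the M317 host. AGe in the same library stood at 1996 RPM, near the 2004 and 2065 RPM of replicates 1 and 2. Its share of reads mapped was 97.4%, against 96.8% in replicates 1 and 2 and 97.2% to 97.3% in M317 flowers. The ratio to M317 was 0.381 (0.135 to 1.08; log2 -1.39; adjusted p = 0.1, edgeR), and with replicate 3 left out the log2 value became -4.09 (adjusted p = 5.6e-09, edgeR). What sets replicate 3 apart was not tested.

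Differences in AGp between flower classes and hosts rested on that library or were not called. sMf over rMf was 0.597 (0.166 to 2.15; adjusted p = 0.453, edgeR) in M318_AGe flowers. In M317_AGe flowers it was 0.118 (log2 -3.08; adjusted p = 0.00295, edgeR), and with replicate 3 of rMf flowers left out the log2 value became -0.48 (adjusted p = 0.522, edgeR). M318_AGe over M317_AGe was 1.34 (0.365 to 4.93; adjusted p = 0.643, edgeR) among sMf flowers. Among rMf flowers it was 0.265 (log2 -1.91; adjusted p = 0.0417, edgeR), and with replicate 3 of M317_AGe left out the log2 value became 0.79 (adjusted p = 0.272, edgeR). That call was also lost without replicate 1, 2 or 3 of M318_AGe rMf flowers (adjusted p = 0.0815, 0.113 and 0.0738, edgeR), and both rMf calls were lost when only the groups compared entered the fit (adjusted p = 0.204 for M317_AGe sMf over rMf and 0.308 for M318_AGe over M317_AGe, edgeR). The hosts held 6.52 ± 2.19 RPM in M318 and 9.36 ± 1.82 RPM in M317 (SD, n = 3 each), a ratio of 0.691 (0.246 to 1.94; adjusted p = 0.483, edgeR).

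The host differences in AGp gain or loss were not called per mapped read: log2 0.96 ± 1.14 for sMf over host, -1.38 ± 1.04 for rMf over host and 2.34 ± 1.18 for sMf over rMf (SE; adjusted p = 0.453, 0.271 and 0.0974, edgeR). Per total read the last 2 were called, at -2.52 and 3.49 (adjusted p = 0.0404 and 0.0142, edgeR), and sMf over rMf was also called without replicate 1 or 2 of M317_AGe rMf flowers, at 2.86 and 2.83 (adjusted p = 0.0229 and 0.0331, edgeR). Without replicate 3 of those flowers the signs turned, to 1.48 for rMf over host and -0.33 for sMf over rMf (adjusted p = 0.0573 and 0.73, edgeR). Over libraries with both hosts together, AGp fell by 2.55 on the log2(RPM + 1) scale in sMf flowers (exact stratified permutation p = 0.005, adjusted p = 0.0114) and fell by 1.86 in rMf flowers (exact p = 0.01, adjusted p = 0.02), each against its host. The rMf value is the mean of -1.92 in M318 and -1.80 in M317, where replicate 3 lay inside the host range.

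Set against the lengths of the headed coordinates, the hosts had AGe and AGp reads at similar density; if the AGp count is of M2, that length need not apply. AGe held 1.05 to 2.03 times as many RPM per kb as AGp in the 6 host libraries. In the cassette libraries it held 968 to 10441 times as many, except in replicate 3 of M317_AGe rMf flowers, at 144 times. Outside that replicate these ratios rest on 1 to 12 AGp reads a library, so their size is imprecise. Every cassette library thus lay above every host library in this ratio.

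Reads aligned more than once were a larger share of mapped reads in M318_AGe than in M318 flowers, whatever the flower class. The share was 60.4%, 59.6% and 60.6% in M318_AGe sMf flowers, 61.2%, 65.6% and 62.6% in M318_AGe rMf flowers, and 52.2%, 52.5% and 55.4% in M318 flowers. The difference from M318 was 6.86 percentage points for sMf and 9.82 for rMf flowers. No library of either class overlapped M318.

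In M317 the share was 59.5%, 59.9% and 60.7% in M317_AGe sMf flowers, 56.7%, 56.0% and 57.4% in M317_AGe rMf flowers, and 56.7%, 56.5% and 58.1% in M317 flowers. sMf flowers stood 2.90 points above M317 with no overlap, and rMf flowers -0.452 points from it with overlap. With both hosts together the sMf difference was 4.88 points (exact stratified permutation p = 0.005, adjusted p = 0.0114) and the rMf difference 4.68 points (p = 0.075, adjusted p = 0.109).

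As a share of mapped reads, sMf and rMf flowers were ordered oppositely in the 2 hosts. sMf minus rMf was -2.96 points in M318_AGe and 3.36 points in M317_AGe, each without overlap, and 0.199 points on average (exact stratified permutation p = 0.87, adjusted p = 0.87). M318 minus M317 was 0.162 points in sMf flowers with overlap, 6.47 points in rMf flowers and -3.80 points in hosts, both without overlap, and 0.946 points on average (p = 0.479, adjusted p = 0.511, exact stratified permutation). Within a host or class the exact p was 0.1 at best.

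As a percent of total reads the picture of M318_AGe rMf flowers was reversed, since few of their reads mapped. Reads aligned more than once were 27.9 ± 1.15% of total reads in M318_AGe rMf flowers and 52.4 ± 1.80% in M318 flowers, and reads aligned once were 16.4 ± 2.21% in M318_AGe rMf and 45.9 ± 1.71% in M318 flowers (SD, n = 3 each). In M318_AGe sMf flowers 58.6 ± 0.614% of total reads aligned more than once and 38.7 ± 0.482% once. On this scale sMf minus rMf was 30.7 points in M318_AGe and 2.28 points in M317_AGe, the same direction in both hosts and without overlap in either.

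The share of reads mapped itself was lower with the cassette in sMf flowers, by a smaller amount. It was 97.3 ± 0.133% in M318_AGe sMf and 98.3 ± 0.0924% in M318 flowers, and 95.4 ± 0.0473% in M317_AGe sMf and 97.3 ± 0.0703% in M317 flowers (SD, n = 3 each). Over both hosts the sMf difference was -1.43 points (exact stratified permutation p = 0.005, adjusted p = 0.0114). The rMf difference was -27.1 points (p = 0.02, adjusted p = 0.0356, exact stratified permutation). It is the mean of -54.0 points in M318 and -0.263 points in M317, where groups overlapped.

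**Figure D4:**
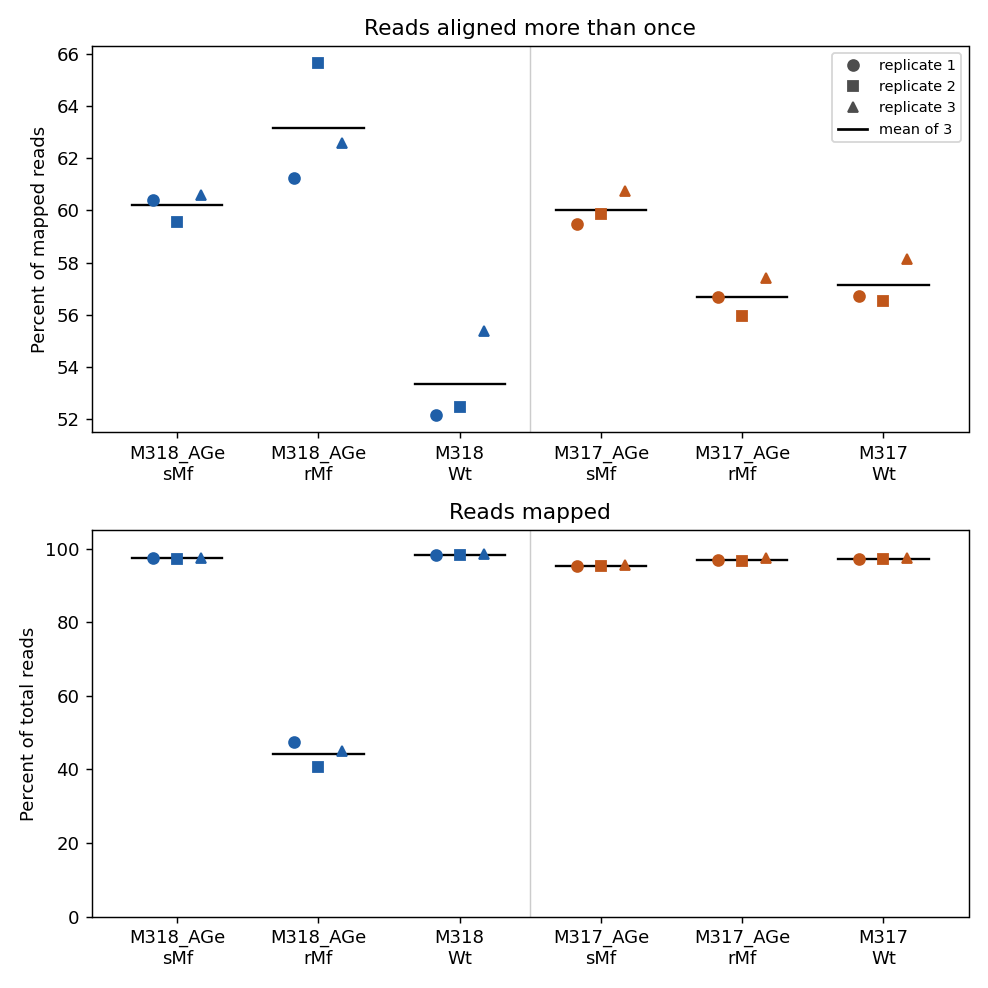
Reads aligned more than once as a percent of mapped reads (top, axis not from 0) and reads mapped as a percent of total reads (bottom) in the 18 libraries; points are replicates and lines means of 3. M318 flowers lie lowest in the top panel, at 52.2% to 55.4%, and M318_AGe rMf flowers lie alone in the bottom panel, at 40.7% to 47.3%.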

How the data were processed

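Small RNA of young flowers was sequenced and the counts of 2 regions were deposited. Per the file headers, the deposited table gives for each library counts of all reads, of those with a single alignment, of those with several, of mapped reads and of reads in each region, and the overall alignment rate in percent. Per the submitters' processing notes, Bowtie and HTSeq 0.13.5 were used with the TAIR10 build, and the treatment of reads with several hits is not given in the sources used here. The deposited percent matched mapped over total reads within 0.01 points in all 18 libraries. Coordinates from the file headers were read in the RefSeq copy TAIR10.1 (chromosome 4 of 18585056 bp), taken to have the nuclear sequence of TAIR10.

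RPM was computed here from the counts. Tests used the two-sided quasi-likelihood F test of edgeR 4.0.16 (R 4.3.3) on all 28 libraries of set A, with a mean per group, mapped reads as library size and no filter, and adjusted p are Benjamini-Hochberg values over 24 tests (12 comparisons of AGe and AGp), with a threshold of 0.05. Each region had its own dispersion, since a shared one would let one region set the test of the other. Of the 24 tests, 14 passed, 9 of AGe and 5 of AGp. Shares were tested by exact stratified permutation over libraries, labels exchanged within a host or class, adjusted over 16 tests. Both regions are named throughout, as the rule for named features. The script was tested on simulated data. Groups and replicates follow the labels. The 18 replicate pairs all differed in a chi-square test over 5 read counts (smallest 63.0), so none was a copy of another and none was merged. Region reads are also among the aligned reads, and at this depth slight technical differences pass. The test thus cannot show that the replicates are separate pools. Replicates are pools of lines per the labels' protocols, and whether the pools share plants is not stated, so p-values may reflect technical spread. Replicate numbers were not used to pair the libraries in the main tests. Over 5 measures, 17 of 45 same-numbered pairs correlated above 0.1. The median correlation was -0.115 for same-numbered and 0.0111 for different-numbered pairs. The regions, comparisons and alternatives were chosen with earlier results of these data known. Reads carry no molecular identifiers here, and the Poisson intervals cover counting error only. The intervals of fitted ratios also include the spread between libraries, but as a single estimate per region pooled over set A. AGe in M318_AGe rMf flowers varied by 6.38% per mapped and 13.8% per total read, more than in the other cassette groups. Intervals that include this group may therefore be too narrow on those scales. Alternatives were the other library sizes, a shared dispersion, other samples in the fit, DESeq2 1.42.0, limma 3.58.1 on log2(RPM + 1) and log2(RPM + 0.1), a filter under 10 reads, the replicate block, leaving out each library and, chosen after seeing the data, leaving out M318_AGe rMf flowers.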

Additional observations from a re-analysis of the deposited data

Results flagged for a closer look

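The gain of AGe over the host in rMf flowers differed between M318 and M317, with a log2 difference of -0.30 (adjusted p = 0.0279, edgeR), and per read aligned once the sign turned to 0.05 (adjusted p = 0.747, edgeR). The share of reads aligned more than once moved in opposite directions between sMf and rMf flowers in the 2 hosts, and the difference between the hosts was -6.31 percentage points (M318_AGe minus M317_AGe of sMf minus rMf). It also moved in opposite directions between hosts in rMf and Wt flowers, by a difference of 10.3 points. As a percent of total reads, sMf was above rMf in both hosts. The share of reads mapped moved in opposite directions for sMf minus rMf in the 2 hosts (difference 54.7 points), for M318 minus M317 in sMf against rMf flowers (54.7) and for M318 minus M317 in rMf against Wt flowers (-53.8), all 3 involving the M318_AGe rMf libraries. These 5 differences in read shares were not tested, and groups of 3 libraries are too small for an outlier test.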

How the results depend on the processing

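Of 495 recomputed values, 454 kept their direction and their side of the threshold. Of the 24 region tests, 14 passed in the reported form, 13 with reads aligned once as library size, 17 with total reads, 15 with a shared dispersion, 13 with only the 18 libraries, 11 with only the groups compared, 14 with DESeq2, 14 with limma at either pseudocount, 14 of 23 with the filter and 12 to 15 without a library. Without the M318_AGe rMf group 8 of 14 passed. Log2 values that changed their call or their sign follow. Per read aligned once, the host difference in AGe gain of rMf flowers was 0.05, that of sMf over rMf -0.15, and AGp of M318_AGe over M317_AGe rMf flowers -1.71. Per total read, the AGe host difference of sMf over rMf was 1.23, AGp of sMf over rMf in M318_AGe 0.38, and the AGp host differences 3.49 for sMf over rMf and -2.52 for rMf over host. The AGe host difference for sMf over host was -0.26 with a shared dispersion and with limma at both pseudocounts. With only the 18 libraries, AGp of M318_AGe over M317_AGe rMf flowers was -1.92. With only the groups compared, it was -1.93, AGp of sMf over rMf in M317_AGe was -3.07 and the AGe host difference for rMf -0.30. With limma, AGp of M317_AGe rMf over M317 was -1.80 (pseudocount 1) and -2.55 (0.1), sMf over rMf in M317_AGe -1.05 and -1.65, and M318_AGe over M317_AGe rMf -0.61 and -0.64. The replicate block gave -1.67 for AGp of M318_AGe over M317_AGe rMf flowers, losing the call, with 13 tests passed, and it changed no other call. As a percent of total reads, the share aligned more than once gave -12.6 points for rMf against host, 16.5 for sMf against rMf and -9.62 for M318 against M317, while the ratio of reads aligned more than once to reads aligned once changed no call. Leaving out a library gave ranges of -0.36 to -0.25 for the AGe host difference of rMf over host and -0.29 to -0.18 of sMf over host. For AGp the ranges were -0.02 to 0.76 for M318_AGe over M317_AGe sMf, -2.43 to 0.79 for M318_AGe over M317_AGe rMf, -4.09 to -0.87 for M317_AGe rMf over M317 and -3.62 to -0.48 for sMf over rMf in M317_AGe. The AGp host differences ran from -0.33 to 2.86 (sMf over rMf) and from -1.89 to 1.48 (rMf over host), with 0.79, -4.09, -0.48, -0.33 and 1.48 all without replicate 3 of M317_AGe rMf flowers. The share aligned more than once of sMf against rMf ran from -0.277 to 0.819 points. The cause of these changes was not tested. At the depth of these libraries AGp in cassette flowers rests on 1 to 12 reads a library, apart from that replicate.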
